A study of Mus musculus with 6 samples.

Results

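The contractile genes of smooth muscle, 43 of the 18268 genes measured, were compared between colitis mice receiving berberine (BBR), a plant alkaloid, and colitis mice receiving sulfasalazine (SASP), a standard drug for ulcerative colitis. The 43 genes were taken as a list of names, and all were present in the table. The list was chosen with earlier results of these data known, so counts of its members describe these data and are no separate test. RNA sequencing had been done on 3 BBR and 3 SASP samples of colorectal tissue. Each sample was taken as a separate mouse, which the labels do not say. All mice were of strain C57BL/6 and had colitis from 7 days of dextran sulfate sodium (DSS), which damages the epithelium of the colon. Each drug was given by gavage for 6 days. The study used adult males, gave DSS in the drinking water and gave SASP at a higher dose per body weight than BBR. Neither healthy mice nor colitis mice without a drug were analysed here, so a gene that lies higher under BBR may equally be said to lie lower under SASP. The labels name 1 tissue, colorectal, for all mice. The study speaks of rectal samples where it describes BBR and of colon samples where it describes SASP. A difference in the stretch of gut sampled cannot be told apart from the drug by design.

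Smooth muscle contracts when calcium, entering through voltage-gated channels or released from the sarcoplasmic reticulum, binds calmodulin and switches on myosin light chain kinase. The kinase phosphorylates the regulatory light chain, myosin then pulls on actin filaments held at dense bodies and at the membrane, and myosin phosphatase ends the contraction. In the colon this muscle forms the muscularis propria and the thin muscularis mucosae, and serum response factor with its partner myocardin drives many of its genes through a DNA element called the CArG box.

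Every group of contractile genes lay higher on average in the BBR mice, but only 1 gene, Ppp1r14a, passed the test upwards, and 1, Atp2a2, downwards. Levels are given in FPKM, sequenced fragments scaled to transcript length and library size, in the order of mouse 1, 2 and 3. Differences are log2 fold changes of FPKM + 1, BBR minus SASP, with the standard error (SE) from limma and a Benjamini-Hochberg adjusted p over all genes tested. The filter of at least 1 FPKM in at least 3 of 6 mice kept 12072 genes and 41 of the 43 members, leaving out Ryr2 and Chrm3. Of the 41, 39 had a log2 fold change above 0 (95.1%, against 60.8% of all genes tested). The median of the members was 1.00 (range -0.50 to 1.88), beside 0.10 over all genes. At an adjusted p under 0.05, 2 members passed (4.88%), beside 8.86% of all genes tested, so contractile genes passed no more often than genes at large. By direction this was 1 member higher, beside 3.82% of all genes, and 1 lower, beside 5.04%. At an unadjusted p of at most 0.05, 28 members passed, beside 31.8% of all genes, and 27 of them were higher (65.9%, against 18.4% of all genes). In 22 members (53.7%) every BBR mouse lay above every SASP mouse, beside 21.3% of all genes, and in 1 every BBR mouse lay below, beside 16.6%. Because whole tissue was sequenced, a difference in the number of muscle cells and one in RNA per muscle cell cannot be told apart.

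The mean of the module in each mouse, taken as the mean log2(FPKM + 1) of all 43 genes, was 4.74, 5.13 and 5.62 in the BBR mice and 3.75, 4.66 and 4.52 in the SASP mice. These means did not overlap between the groups, at 5.16 ± 0.44 in BBR and 4.31 ± 0.49 in SASP mice (SD, n = 3 each), and BBR mouse 1 lay only just above SASP mouse 2. With 3 mice a group an exact permutation test cannot go below a p of 0.10, so none was made on this mean. The defining genes of smooth muscle were present in every mouse, with Myh11 never under 75.0 FPKM beside a median of 10.01 FPKM for the mean level of a tested gene. Epcam, an epithelial gene named after its values were seen, was at 833 to 1101 FPKM in the same tissue. The members took 1.33%, 1.49% and 2.72% of all FPKM in the BBR mice and 0.582%, 1.16% and 0.934% in the SASP mice.

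**Figure D1:**
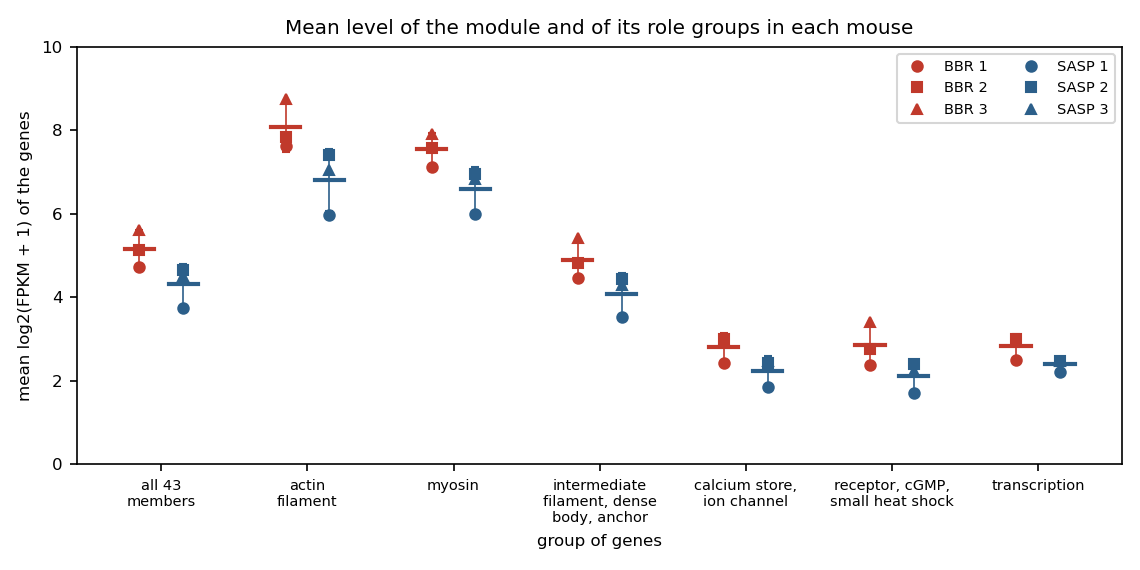
Mean log2(FPKM + 1) of the 43 contractile genes and of their 6 role groups on the y axis, with 1 point a mouse, horizontal lines for group means and vertical bars for ± 1 SD (n = 3). The 3 BBR mice lie above the 3 SASP mice for the module (4.74 to 5.62 against 3.75 to 4.66), whereas the calcium store and receptor groups overlap.

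BBR mouse 3 and SASP mouse 1 held the ends of the range. BBR mouse 3 was the highest of the 6 mice in 34 of 43 members, and among tested members in 78.0%, beside 14.1% of all genes. SASP mouse 1 was the lowest in 40 of 43, and among tested members in 92.7%, beside 30.6% of all genes. Both held at once in 73.2% of tested members, beside 7.63% of all genes. The range within a drug, from its lowest to its highest mouse, was about as large as the difference between drugs. For the mean of the module, that difference was 0.85, beside SDs of 0.44 in BBR and 0.49 in SASP mice. SASP mouse 2 exceeded SASP mouse 1 in 42 of 43 members by a median of 0.91 and BBR mouse 3 exceeded BBR mouse 1 in 42 of 43 by 0.88 on the log2 scale. BBR mouse 1 and SASP mouse 2 stood nearly level, with BBR mouse 1 higher in 26 of 43 members and a median difference of 0.06, beside 0.07 over all genes. BBR mouse 2 was higher than SASP mouse 2 in 40 of 43, by a median of 0.43. Without SASP mouse 1 the members' median log2 fold change was 0.55, without BBR mouse 3 it was 0.69, and without both it was 0.35. BBR mouse 3 also stood apart over all genes, with correlations of 0.953 and 0.949 to the other BBR mice, which correlated with each other at 0.987. Its correlations to SASP mice 1, 2 and 3 were 0.920, 0.953 and 0.944. It thus lay no nearer to the other BBR mice than to SASP mouse 2.

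**Figure D2:**
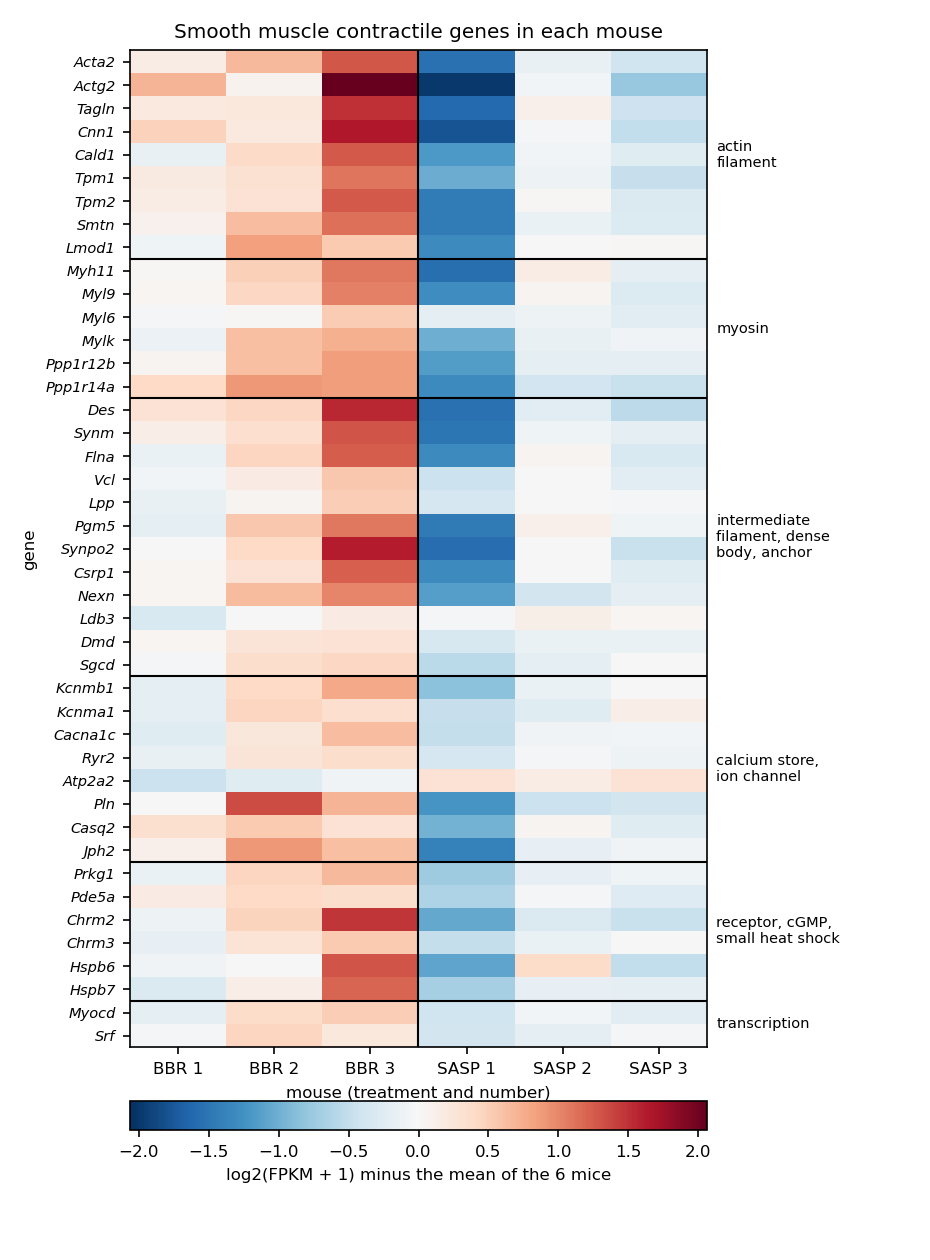
Level of each contractile gene (rows, by role) in each mouse (columns), as log2(FPKM + 1) minus the mean of the gene over the 6 mice, with red above and blue below that mean. The column of BBR mouse 3 is the reddest, highest in 34 of 43 genes, the column of SASP mouse 1 the bluest, lowest in 40 of 43, and Atp2a2 runs the other way.

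Promoters that hold a CArG box, or one near it, and that of Ppp1r14a, which holds neither, show the DNA element through which serum response factor acts. The RefSeq sequences of build GRCm38.p6 covered 37 of the 43 members in windows of 300 bases, 250 before and 50 after the start. Those of Actg2, Tagln, Myh11, Nexn, Atp2a2 and Myocd were not among them. A CArG box is CC, a core of 6 letters that are each A or T, and GG, searched on both strands. It was found in 6 of the 37 members (16.2%: Srf, Myl9, Vcl, Myl6, Dmd and Ldb3), beside 1.81% of 27025 genes with a window and 1.59% of those tested here. When 1 letter of the core could differ, 12 of 37 matched (32.4%), against 11.3% and 10.7%, now with Acta2, Jph2, Cacna1c, Synm, Hspb6 and Lpp as well. The TATAAA motif was in 16.2% of members, against 15.7% of all and 9.30% of tested genes, and the E-box CANNTG in 75.7%, against 75.0% and 67.6%. The 250 bases before the start are given 5′ to 3′ on the strand of the gene, with CArG boxes in capitals (in Acta2, boxes with 1 core letter changed). Srf lies at chr17:46556163-46556412, minus strand, Myl9 at chr2:156775214-156775463, plus strand, Vcl at chr14:20929148-20929397, plus strand, Acta2 at chr19:34255374-34255623, minus strand, and Ppp1r14a at chr7:29289070-29289319, plus strand. 
Srf: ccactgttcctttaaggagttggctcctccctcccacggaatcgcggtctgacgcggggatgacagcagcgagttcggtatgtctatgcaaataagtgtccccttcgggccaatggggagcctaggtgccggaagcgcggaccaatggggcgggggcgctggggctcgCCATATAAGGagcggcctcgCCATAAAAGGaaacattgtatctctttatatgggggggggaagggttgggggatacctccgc
Myl9: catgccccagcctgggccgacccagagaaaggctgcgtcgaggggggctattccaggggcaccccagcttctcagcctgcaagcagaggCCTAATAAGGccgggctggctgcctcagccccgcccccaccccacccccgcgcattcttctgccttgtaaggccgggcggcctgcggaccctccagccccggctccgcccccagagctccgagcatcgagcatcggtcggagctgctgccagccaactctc
Vcl: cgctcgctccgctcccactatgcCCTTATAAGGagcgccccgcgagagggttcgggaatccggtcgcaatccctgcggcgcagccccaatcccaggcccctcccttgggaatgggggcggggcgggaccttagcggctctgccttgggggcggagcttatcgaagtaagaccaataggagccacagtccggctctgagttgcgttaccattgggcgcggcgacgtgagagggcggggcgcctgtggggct
Acta2: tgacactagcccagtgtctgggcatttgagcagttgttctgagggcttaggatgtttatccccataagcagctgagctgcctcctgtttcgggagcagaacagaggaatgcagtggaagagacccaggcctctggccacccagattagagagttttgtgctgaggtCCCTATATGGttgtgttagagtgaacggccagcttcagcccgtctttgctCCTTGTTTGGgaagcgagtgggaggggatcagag
Ppp1r14a: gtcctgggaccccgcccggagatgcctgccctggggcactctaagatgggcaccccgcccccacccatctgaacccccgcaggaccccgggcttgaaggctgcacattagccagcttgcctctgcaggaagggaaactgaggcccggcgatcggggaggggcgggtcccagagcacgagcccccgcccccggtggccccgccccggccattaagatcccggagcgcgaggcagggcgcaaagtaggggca

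The boxes begin at positions -82 and -62 in Srf, at -161 in Myl9 and at -227 in Vcl, and the near boxes of Acta2 at -84 and -34, counted from the start of the gene. The log2 fold changes of genes with a box ran from -0.09 in Ldb3 to 1.01 in Myl9, with Vcl at 0.45 and Srf at 0.41. Acta2, with near boxes only, stood at 1.40, and Ppp1r14a, with neither in its window, at 1.44. Actg2, Tagln and Myh11 had no window, so the range covers only the genes searched. Whether boxes go with the differences was not tested. A match is a run of letters only, and binding was not measured.

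The thin filament genes showed the highest median of the 6 role groups, 1.24, with all 9 above 0 and 7 of 9 without overlap between the groups. None passed the adjusted threshold in limma, and 8 had an unadjusted p of at most 0.05. Over all genes tested, 21.3% had every BBR mouse above every SASP mouse, and 18.4% were higher at that unadjusted p. Acta2, the α-actin of smooth muscle, was at 532, 765 and 1168 FPKM under BBR and at 164, 434 and 362 FPKM under SASP. All BBR mice lay above all SASP mice, the nearest being BBR mouse 1 and SASP mouse 2 (log2 fold change 1.40, SE 0.42, adjusted p = 0.078). Actg2, the γ-actin of visceral smooth muscle, was at 629, 406 and 1620.3 FPKM under BBR and at 97, 372 and 226 FPKM under SASP. Its log2 fold change of FPKM + 1 was the largest of the module (1.88, SE 0.62, adjusted p = 0.095). As a ratio of group means, Pln, a gene of low level, was wider (4.42) than Actg2 (3.82). BBR mouse 2 lay below BBR mouse 1 for this actin but above it for Acta2. The coding sequences of these actins are nearly identical, so how reads were divided between them is not certain.

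Among the actin-binding proteins, Tagln (transgelin) was at 742, 755 and 1837 FPKM under BBR and at 212, 693 and 483 FPKM under SASP (log2 fold change 1.29, SE 0.51, adjusted p = 0.141). Cnn1, calponin, which restrains the actomyosin ATPase, was at 387, 320.4 and 874 FPKM under BBR and at 80.9, 275 and 195 FPKM under SASP (log2 fold change 1.54, SE 0.53, adjusted p = 0.101). Both genes had groups that did not overlap, but BBR mice 1 and 2 were nearer to SASP mouse 2 than to BBR mouse 3. Smtn, smoothelin, a marker of contractile muscle, was at 51.5, 76.1 and 108 FPKM under BBR and at 17.2, 44 and 39.5 FPKM under SASP (log2 fold change 1.24, SE 0.40, adjusted p = 0.0869). Lmod1, leiomodin, which nucleates actin filaments, was at 9.65, 19.4 and 15.5 FPKM under BBR and at 3.6, 10.5 and 10.6 FPKM under SASP and had the smallest difference of the group (log2 fold change 0.85, SE 0.40, adjusted p = 0.195). Here BBR mouse 1 lay below SASP mice 2 and 3, so the groups overlapped. The tropomyosins Tpm1 and Tpm2, which lie along the filament, and Cald1 (caldesmon) had log2 fold changes of 1.07, 1.14 and 1.00, with adjusted p-values of 0.0743, 0.128 and 0.153 in limma.

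Ppp1r14a (Gene ID 68458) encodes CPI-17, the phosphoprotein that inhibits myosin phosphatase and so sensitises the muscle to calcium. It was at 46.5, 65.4 and 64.4 FPKM under BBR and at 13.5, 26.2 and 25.1 FPKM under SASP, with means of 58.8 ± 10.6 FPKM under BBR and 21.6 ± 7.05 FPKM under SASP (SD, n = 3 each). The lowest BBR mouse lay well above the highest SASP mouse, and the gene rose in BBR relative to SASP mice with a log2 fold change of 1.44 (SE 0.27, adjusted p = 0.0261). BBR mouse 3 was not the highest in this gene, unlike in most members. The call was lost without BBR mouse 1 (log2 fold change 1.60, adjusted p = 0.0638) or BBR mouse 2 (1.36, adjusted p = 0.0778). It was also lost without SASP mouse 1 (1.15, adjusted p = 0.0564) or SASP mouse 3 (1.57, adjusted p = 0.0791). It was kept in limma without BBR mouse 3 (1.37, adjusted p = 0.0195) or SASP mouse 2 (1.60, adjusted p = 0.0455). The log2 fold change of Ppp1r14a stayed between 1.15 and 1.60 in these fits. Calls over all genes moved as well, from 96 without SASP mouse 3 to 4051 without BBR mouse 3, beside 1069 with all mice.

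The other 5 genes of the myosin group were all above 0 without passing the adjusted test, and the 6 together had a median of 1.02 (0.59 without SASP mouse 1). Myh11, the smooth muscle myosin heavy chain, was at 225, 312 and 473 FPKM under BBR and at 75, 247 and 194 FPKM under SASP (log2 fold change 1.06, SE 0.47, adjusted p = 0.168). Myl9, the regulatory light chain, was at 376, 491 and 753 FPKM under BBR and at 149, 380.2 and 299 FPKM under SASP (log2 fold change 1.01, SE 0.39, adjusted p = 0.131). In both genes a BBR mouse lay below SASP mouse 2, so the groups overlapped. Mylk, the light chain kinase, was at 81.1, 136 and 147 FPKM under BBR and at 43.1, 79.3 and 83.6 FPKM under SASP (log2 fold change 0.82, SE 0.32, adjusted p = 0.129). Its value in BBR mouse 1 was between SASP mice 2 and 3. Ppp1r12b, a targeting subunit of the phosphatase, had a log2 fold change of 1.02 (adjusted p = 0.0797) with no overlap. Myl6, the essential light chain, which many cell types make, had the smallest difference of the group (log2 fold change 0.34, SE 0.19, adjusted p = 0.261) and the highest level of all members. The ratio of Ppp1r14a to Mylk, inhibitor to kinase, was chosen after the data were seen and was not tested. It was 0.574, 0.482 and 0.439 in the BBR mice and 0.314, 0.331 and 0.301 in the SASP mice, with no overlap. As its numerator is the member called higher, the ratio in part restates that call.

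Genes of the intermediate filaments, dense bodies and membrane anchors had a median of 1.00 (0.56 without SASP mouse 1), with 11 of 12 above 0 and 6 without overlap. In limma 0 passed the adjusted threshold, and 8 had an unadjusted p of at most 0.05. The shares over all genes were 21.3% with every BBR mouse above every SASP mouse and 18.4% higher at that p. In all 12 the highest value was that of BBR mouse 3. Des, desmin, the muscle intermediate filament, was at 216, 236 and 517 FPKM under BBR and at 60.0, 150.4 and 120.2 FPKM under SASP, the largest difference of the group (log2 fold change 1.52, SE 0.43, adjusted p = 0.0693). Without BBR mouse 3 and SASP mouse 1 together, desmin passed in limma at a smaller difference (0.74, adjusted p = 0.0166). Leaving out these mice was chosen after the data were seen, and 2988 of 12072 genes tested passed in that setting. Synpo2, an actin-binding protein of the dense body and Z-disc, was at 15.2, 20.5 and 48.6 FPKM under BBR and at 4.44, 15.2 and 10.7 FPKM under SASP (log2 fold change 1.36, SE 0.52, adjusted p = 0.127). Pgm5, aciculin, a partner of dystrophin at adhesions, was at 22.2, 37.8 and 55.5 FPKM under BBR and at 8.65, 27.4 and 23.9 FPKM under SASP (log2 fold change 0.97, SE 0.47, adjusted p = 0.204). Synpo2 separated the groups by under 1 FPKM, and Pgm5 overlapped because BBR mouse 1 was below SASP mice 2 and 3. Ldb3, a Z-disc protein, had the smallest value of the group (log2 fold change -0.09, SE 0.16, adjusted p = 0.709) and was the member with the narrowest range, 1.60-fold from the lowest to the highest mouse. The other 8 (Synm, Flna, Vcl, Lpp, Csrp1, Nexn, Dmd and Sgcd) ranged from 0.26 for Lpp to 1.19 for Synm.

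The calcium store and ion channel genes did not lie in 1 direction. Their median was 0.67 (0.41 without SASP mouse 1 and 0.44 without BBR mouse 3). Of 7 tested, 1 passed downwards and 0 upwards in limma (3 upwards at an unadjusted p of at most 0.05, beside 18.4% of all genes). Their means overlapped, at 2.43, 3.01 and 2.99 in the BBR mice and 1.85, 2.42 and 2.48 in the SASP mice. Atp2a2 (Gene ID 11938) encodes SERCA2, the pump that refills the sarcoplasmic reticulum, which is made in nearly all cells. It was at 71.1, 81.2 and 92 FPKM under BBR and at 119, 108 and 119 FPKM under SASP, with means of 81.4 ± 10.5 FPKM under BBR and 115 ± 6.21 FPKM under SASP (SD, n = 3 each). All BBR mice lay below all SASP mice, and Atp2a2 was lower in BBR mice by the test (log2 fold change -0.50, SE 0.12, adjusted p = 0.0492). This call stood at the threshold, and was lost without BBR mouse 1 (log2 fold change -0.41, adjusted p = 0.117) or BBR mouse 2 (-0.50, adjusted p = 0.123). The same held without SASP mouse 1 (-0.48, adjusted p = 0.173), SASP mouse 2 (-0.55, adjusted p = 0.0877) or SASP mouse 3 (-0.48, adjusted p = 0.164). The call was kept without BBR mouse 3 (-0.59, adjusted p = 0.00803). Pln, phospholamban, which restrains that pump in muscle, was at 2.01, 6.65 and 3.9 FPKM under BBR and at 0.30, 1.22 and 1.32 FPKM under SASP and had the widest range of all members, 22.2-fold (log2 fold change 1.36, SE 0.38, adjusted p = 0.0656). Its groups did not overlap, but SASP mouse 1 held only about 12.4 reads by estimate. The ratio of Pln to Atp2a2, also chosen after the data were seen, was not tested. It was 0.0283, 0.0819 and 0.0424 in the BBR mice and 0.00253, 0.0113 and 0.0111 in the SASP mice. Its denominator is the member called lower, so it in part restates that call.

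Differences of the 3 surface channel genes ran from 0.40 to 0.67 on the log2 scale. Cacna1c, the pore of the voltage-gated calcium channel, was at 1.67, 2.75 and 3.93 FPKM under BBR and at 1.28, 2.03 and 2.08 FPKM under SASP (log2 fold change 0.40, SE 0.25, adjusted p = 0.296). Kcnma1, the pore of the large-conductance potassium channel that opposes contraction, was at 3.63, 6.14 and 5.68 FPKM under BBR and at 2.79, 3.43 and 4.78 FPKM under SASP (log2 fold change 0.40, SE 0.23, adjusted p = 0.268). Its smooth muscle subunit Kcnmb1 was at 3.36, 5.64 and 7.62 FPKM under BBR and at 1.77, 3.52 and 3.97 FPKM under SASP (log2 fold change 0.67, SE 0.31, adjusted p = 0.191). All 3 overlapped between the groups, with BBR mouse 1 below SASP mouse 3. Ryr2, a calcium release channel of the store, was at 0.30, 0.75 and 0.87 FPKM under BBR and at 0.14, 0.42 and 0.35 FPKM under SASP, too low to be tested. Casq2, the calcium-binding calsequestrin of the store, and Jph2, a junctophilin that ties the store to the membrane, had log2 fold changes of 0.78 and 1.09 (adjusted p = 0.0988 and 0.105), with no overlap between the groups. BBR mouse 2 was the highest in 4 of these 8 genes and BBR mouse 3 in 3, unlike in the filament genes.

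**Figure D3:**
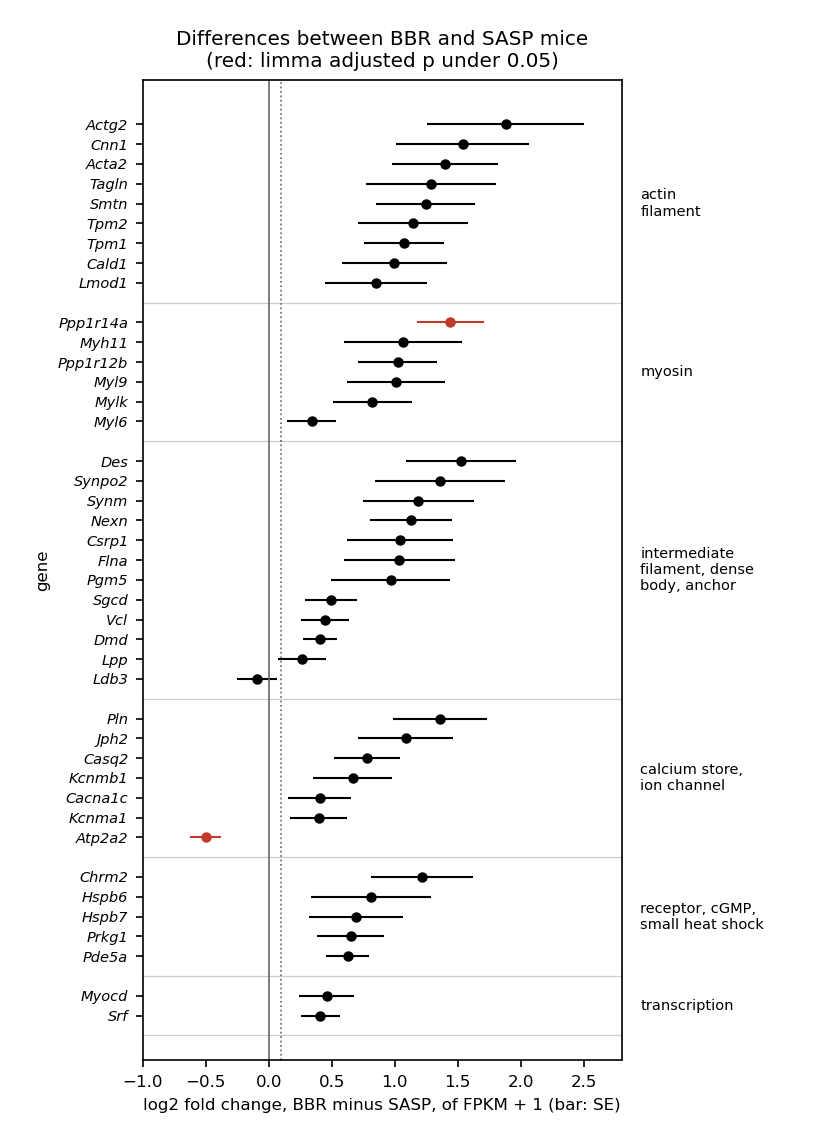
Log2 fold change of FPKM + 1, BBR minus SASP, of the 41 tested contractile genes on the x axis, with bars of ± 1 SE from limma (3 mice a group), genes by role on the y axis and a dotted line at the median of all genes tested (0.10). Ppp1r14a (1.44) and Atp2a2 (-0.50) are the genes past an adjusted p of 0.05, and 39 of 41 lie above 0.

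Genes of receptors, cyclic GMP signalling and small heat shock proteins had a median of 0.69, with 5 of 5 tested above 0. In limma 0 passed the adjusted threshold, and 3 were higher at an unadjusted p of at most 0.05, beside 18.4% of all genes. Chrm2, the more abundant muscarinic acetylcholine receptor of gut muscle, was at 5.0, 7.84 and 17 FPKM under BBR and at 2.1, 4.23 and 3.68 FPKM under SASP, the largest difference of the group (log2 fold change 1.22, SE 0.41, adjusted p = 0.0957). Chrm3, the muscarinic receptor that triggers contraction, was at 0.46, 0.98 and 1.38 FPKM under BBR and at 0.16, 0.48 and 0.62 FPKM under SASP, too low to be tested, with 12.3 reads in SASP mouse 1 by estimate. Both receptors had their highest level in BBR mouse 3 and their lowest in SASP mouse 1, and the groups overlapped for Chrm3 alone. Prkg1, the cyclic GMP-dependent kinase that relaxes the muscle, was at 1.26, 2.35 and 2.94 FPKM under BBR and at 0.49, 1.21 and 1.34 FPKM under SASP (log2 fold change 0.65, SE 0.27, adjusted p = 0.147). Pde5a, the phosphodiesterase that breaks down cyclic GMP, was at 19.2, 22.9 and 22.2 FPKM under BBR and at 10.6, 16.5 and 14.1 FPKM under SASP and had the smallest difference of the group but the smallest SE (log2 fold change 0.62, SE 0.17, adjusted p = 0.0631). Prkg1 overlapped and Pde5a did not. The heat shock proteins Hspb6 and Hspb7 stood at 0.81 and 0.69 (adjusted p = 0.275 and 0.243), each with overlap.

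The transcription factors of the muscle programme had smaller differences than the median member. Myocd, myocardin, was at 1.24, 2.32 and 2.66 FPKM under BBR and at 0.92, 1.47 and 1.2 FPKM under SASP (log2 fold change 0.46, SE 0.22, adjusted p = 0.192). Srf, serum response factor, was at 13.2, 18.7 and 15.8 FPKM under BBR and at 10.2, 11.7 and 13.1 FPKM under SASP (log2 fold change 0.41, SE 0.16, adjusted p = 0.13). Myocd overlapped between the groups, while Srf did not, by a margin of under 0.1 FPKM between BBR mouse 1 and SASP mouse 3.

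The muscle members of 6 gene families were next set beside their ubiquitous relatives, which many cell types make, as a share of the FPKM of the family that does not depend on the scaling of a mouse. The families were chosen with the values known, and the shares are a description without a test. Acta2 and Actg2 made up 41.7%, 36.4% and 53.1% in the BBR mice and 8.52%, 25.5% and 17.4% in the SASP mice of 4 actins (with Actb and Actg1), or 43.7 ± 8.57% and 17.1 ± 8.48% (SD, n = 3 each). Tpm1 and Tpm2 took 81.4%, 81.3% and 87.6% in the BBR mice and 50.5%, 71.3% and 64.1% in the SASP mice of 4 tropomyosins. In both families every BBR mouse was above every SASP mouse. Actb and Actg1 summed to 1622, 2050 and 2459 FPKM under BBR and to 2808, 2362 and 2802 FPKM under SASP, with overlap. Tpm3 and Tpm4 summed to 205, 226 and 253 FPKM under BBR and to 347, 307 and 335 FPKM under SASP, without overlap. As Tpm3 itself passed the test downwards, the tropomyosin share in part restates that call. The relatives of the other 4 families overlapped or lay higher in the BBR mice. Myh11 took 70.3%, 75.5% and 85.4% in the BBR mice and 52.4%, 74.3% and 73.3% in the SASP mice of myosin heavy chains with Myh9 and Myh10, and here BBR mouse 1 was below SASP mice 2 and 3. The shares of Myl9, Cnn1 and Tagln overlapped too, so 4 of 6 families did.

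The ubiquitous relatives had a median near 0 as a list, but their log2 fold changes ranged from -0.68 to 0.79. Of 17 ubiquitous cytoskeleton genes, 8 were above 0, with a median of -0.02 that became -0.15 with median-ratio scaling, 0.01 with quantile normalization and 0.03 with scaling to genes outside the module. Of these 1 passed, Tpm3, a tropomyosin of most cells. Tpm3 was at 147, 159 and 187 FPKM under BBR and at 275, 245 and 268 FPKM under SASP, lower in every BBR mouse (log2 fold change -0.68, SE 0.13, adjusted p = 0.0266). Actb, the common β-actin, named after its values were seen, had a log2 fold change of -0.41 that did not pass (adjusted p = 0.206).

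**Figure D4:**
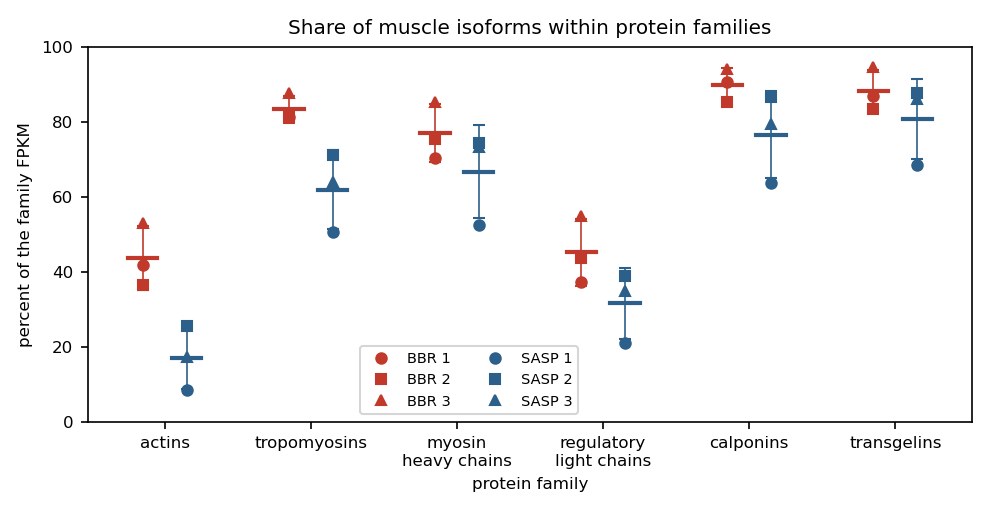
Share of the summed FPKM of each family held by its muscle members (y axis, percent) in each mouse, with group means as horizontal lines and bars of ± 1 SD (n = 3). Actins (36.4% to 53.1% against 8.52% to 25.5%) and tropomyosins separate the groups, and the other 4 families overlap.

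Other parts of the pathway were described from lists written with earlier results of these data known. Of 17 tested genes of calcium entry, release and extrusion, 14 were above 0 (median 0.52) and 1 passed. This was Cacnb3, a calcium channel β subunit, which stood at 14.9, 18.1 and 10.2 FPKM under BBR and at 5.8, 7.84 and 7.1 FPKM under SASP (log2 fold change 0.93, SE 0.21, adjusted p = 0.0446). All 11 tested genes of nitric oxide and cyclic nucleotide relaxation were above 0 (median 0.52) and 0 passed, Gucy1b1, a subunit of the nitric oxide receptor, coming nearest (log2 fold change 0.94, adjusted p = 0.0581). Of 11 tested receptor and agonist genes of contraction, 9 were above 0 (median 0.38, or 0.16 without SASP mouse 1) and 1 passed. The gene was Ptger3, a prostaglandin E receptor, at 4.69, 7.09 and 3.88 FPKM under BBR and at 1.94, 1.51 and 2.82 FPKM under SASP (log2 fold change 1.00, SE 0.24, adjusted p = 0.0489). Of 16 tested partners of serum response factor and factors of phenotype switching, 14 were above 0 (median 0.40) and 0 passed, with Elk1 nearest (log2 fold change 0.38, adjusted p = 0.103). Over all 16 lists, markers of other cells included, 10 of 139 tested genes passed, 8 higher and 2 lower in BBR mice, beside 8.86% of all genes tested, so this count was no larger than the background. The calls depended on single mice, as did those over all genes, from 96 without SASP mouse 3 to 4051 without BBR mouse 3. There were 0 without BBR mouse 1, SASP mouse 1 or SASP mouse 3, 1 (Edn1, named after its values were seen) without BBR mouse 2, 6 without SASP mouse 2 and 45 without BBR mouse 3.

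Markers of other cell types moved with the contractile genes in part, and their part in the result was not tested. Enteric neurons and glia lie within the muscle coat. The mean log2(FPKM + 1) of 11 of their genes was 1.39, 2.30 and 2.68 in the BBR mice and 1.06, 1.91 and 1.76 in the SASP mice. In this list all 9 tested genes were above 0 (median 0.57) and 0 passed in limma. The median was 0.92 without BBR mouse 1, 0.25 without BBR mouse 3 and 0.03, with 5 of 9 above 0, without BBR mouse 3 and SASP mouse 1. With array quality weights it was -0.31, with 1 of 9 above 0. As in the muscle genes, BBR mouse 3 was the highest and SASP mouse 1 the lowest. For 8 vascular mural genes, which mark vessel muscle and pericytes, it was 2.2, 2.69 and 2.70 in the BBR mice and 1.46, 2.06 and 2.05 in the SASP mice. All 6 tested were above 0 (median 0.79) and 0 passed (Cspg4 nearest, log2 fold change 0.82, adjusted p = 0.0504). Here too BBR mouse 3 was the highest, just above BBR mouse 2, and SASP mouse 1 the lowest. For 10 fibroblast genes it was 4.35, 4.71 and 4.35 in the BBR mice and 3.27, 3.89 and 3.75 in the SASP mice. Of the 9 tested, 3 rose (Thy1 0.84, Lum 1.32 and Col1a1 0.95, adjusted p = 0.0399, 0.0444 and 0.0481). Beside this, 3.82% of all genes rose, and the fibroblast list had 0 calls with no filter or without BBR mouse 1, BBR mouse 2, SASP mouse 1 or SASP mouse 3. It had 8 without BBR mouse 3, 7 with array quality weights, 5 under median-ratio scaling and 4 under quantile normalization. For 7 endothelial genes it was 1.82, 2.28 and 1.72 in the BBR mice and 1.08, 1.36 and 1.40 in the SASP mice. Of the 7, 2 rose (Cldn5 1.05 and Emcn 0.83, adjusted p = 0.0354 and 0.0351), against 3.82% of all genes. The endothelial list too had 0 calls with no filter or without BBR mouse 1, BBR mouse 2, SASP mouse 1 or SASP mouse 3. Without BBR mouse 3 it had 4, and with array quality weights 5. For 5 genes of the interstitial cells of Cajal, the pacemakers of the gut, it was 4.18, 4.57 and 3.97 in the BBR mice and 3.69, 3.88 and 3.64 in the SASP mice. All 5 were above 0 (median 0.56) and 0 passed (Kit nearest, log2 fold change 0.75, adjusted p = 0.0562). In these last 3 lists, BBR mouse 2 and not BBR mouse 3 was the highest.

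The epithelial list was split in direction, and the leukocyte list lay lower in the BBR mice. The mean of 10 epithelial genes was 9.24, 9.03 and 9.38 in the BBR mice and 8.78, 9.11 and 8.94 in the SASP mice, so its ends were those of the muscle genes, BBR mouse 3 and SASP mouse 1. Of the 10 genes 8 were above 0, with a median log2 fold change of 0.04, and 3 with a median of -0.10 under median-ratio scaling. Among those that did not pass, Car1 and Krt20, named after their values were seen, lay in opposite directions. Car1, a carbonic anhydrase of colon epithelium, was at 1200.3, 1261 and 2345 FPKM under BBR and at 71.8, 853 and 328 FPKM under SASP (log2 fold change 2.48, SE 0.82, adjusted p = 0.095), a larger log2 fold change than that of any contractile gene. Krt20, a keratin of the surface epithelium, was at 285, 245 and 551 FPKM under BBR and at 899, 623 and 796 FPKM under SASP (log2 fold change -1.18, SE 0.31, adjusted p = 0.0613). Past the test, Vil1, a brush border protein, was lower (log2 fold change -0.55, adjusted p = 0.0327) and Cdx2, an intestinal transcription factor, higher in BBR mice (log2 fold change 1.5, adjusted p = 0.0422). The mean of 9 leukocyte genes was 1.62, 1.92 and 1.52 in the BBR mice and 2.47, 1.94 and 2.19 in the SASP mice. Of these, 1 of 6 tested was above 0 (median -0.51) and 0 passed (Cd52 nearest, log2 fold change -1.04, adjusted p = 0.0744), and without SASP mouse 1 the median was -0.34. Genes of skeletal muscle, which surrounds the anus, summed to 9.36 to 22.9 FPKM in BBR and 8.04 to 13.6 FPKM in SASP mice over 13 genes. Only 2 were tested and 0 passed (Acta1 nearest, log2 fold change -0.97, adjusted p = 0.179). The 6 cardiac muscle genes summed to at most 16.4 FPKM, with 1 tested (Tnnt2, log2 fold change 0.68, adjusted p = 0.38). The 4 mesothelial genes summed to at most 2.01 FPKM, with 0 tested. The 43 contractile genes summed to 6209 to 12848 FPKM in BBR and 2837 to 5479 FPKM in SASP mice. The lists differ in length and in the level of their genes, and a part of skeletal or cardiac muscle in the result was not tested.

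3 Hox genes of the hindgut, chosen after the data were seen, are given as a description. The stretch of gut sampled was not tested with them. Hoxa13 was at 21, 24.7 and 11.7 FPKM under BBR and at 14.1, 17.1 and 16.4 FPKM under SASP. Hoxb13 was at 264, 300.2 and 151 FPKM under BBR and at 199, 168 and 199 FPKM under SASP. Hoxd13 was at 44.1, 66.9 and 37.9 FPKM under BBR and at 58.5, 48.9 and 69 FPKM under SASP. The groups overlapped for all 3, with log2 fold changes of 0.20, 0.28 and -0.27 (adjusted p = 0.613, 0.467 and 0.437), and BBR mouse 3, the highest in muscle genes, was the lowest in each.

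**Figure D5:**
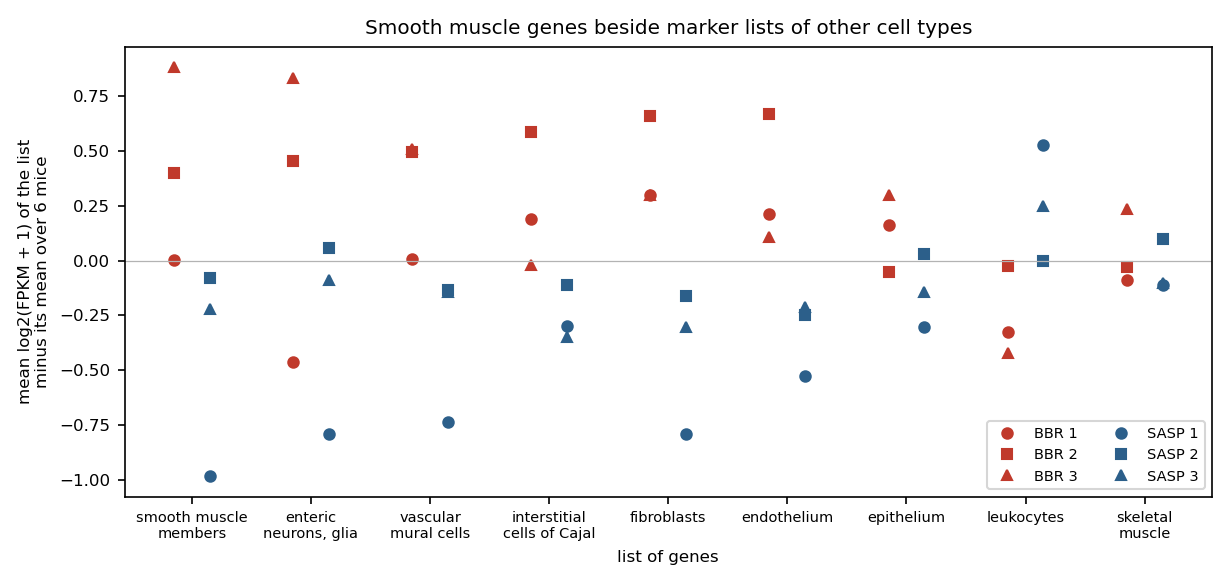
Mean log2(FPKM + 1) of each list of genes in each mouse, minus the mean of the list over the 6 mice (y axis), for contractile genes and markers of other cells (x axis). The enteric neuron and glia, vascular mural, epithelial and skeletal muscle lists share the ends of the contractile genes, with BBR mouse 3 highest and SASP mouse 1 lowest, and leukocyte markers lie lower in the BBR mice.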

How the data were processed

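RNA was sequenced from colorectal tissue of 3 BBR and 3 SASP colitis mice. The authors deposited 1 table of FPKM for 18268 genes, made with Bowtie2 2.2.5 and RSEM 1.2.12 on build mm9, as the submitters' processing notes and the methods state. The labels name an Illumina TruSeq kit, and the methods name rRNA depletion and single-end BGISEQ-500 reads, so the preparation is not settled. RSEM divides reads that match several genes among them, which makes near-identical actins uncertain, and strand was not given in the sources used here. The table holds no coordinates. Samples were taken as separate mice, which the labels do not say, so p-values set differences against the spread between these samples.

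As FPKM hold no counts, count models were left out. limma 3.58.1 (R 4.3.3), with a variance trend and no covariate, was fitted to log2(FPKM + 1) for 12072 genes with at least 1 FPKM in at least 3 of 6 samples, with a two-sided Benjamini-Hochberg adjusted p under 0.05 as the threshold. A pseudocount of 1 understates the change of low genes. The procedure was tested on simulated data. Depth is not given. Low values, read as whole reads on transcripts under 1500 bases, put it at about 16400000 to 18200000 reads, from 31 to 56 genes a sample. Between 11518 and 12307 genes reached 1 FPKM, and at most 0.389% of values were identical in any pair of samples.

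Members, roles and lists were chosen with earlier results of these data known. Values in each mouse are given for 24 lead genes and for members past the threshold, other members by range and by the largest and smallest of each role, and from each other list up to 5 genes past the threshold or, with none, the 1 with the smallest p. Groups were taken from the treatment labels and the numbers of the mice from their order. Alternatives were other pseudocounts, filters, scalings, sample weights and leaving out mice. The nearest gene of 1 marker list and the values of 1 pathway list are not reported here.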

Additional observations from a re-analysis of the deposited data

How the results depend on the processing

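With a pseudocount of 0.5 or 0.1, no filter, a mean of at least 5 FPKM, quantile normalization, scaling to genes outside the module or no variance trend, 1 member passed in place of 2, Ppp1r14a each time. Array quality weights gave 12 of 41 members, beside 7126 of 12072 genes, so members passed less often than genes at large. An unadjusted p gave 28 members, beside 3837 genes. Leaving out 1 mouse gave 0 to 2 members, beside 96 to 4051 genes. Over all genes, 1069 passed (461 higher, 608 lower), with 608 under no filter, 1728 under quantile normalization, 1683 under median-ratio scaling (499 higher, 1184 lower), 7126 with array weights, 3837 at an unadjusted p, and 96 (without SASP mouse 3) to 4051 (without BBR mouse 3) without 1 mouse. Median-ratio scaling moved the median of all genes from 0.10 to -0.02. The other lists had 10 calls, and instead 3 with no filter (Tpm3, the only one also among the 10, and Actn3 and Myl7, which the filter had left out), 16 under median-ratio scaling, 75 with array weights, 59 at an unadjusted p and 0 to 45 without 1 mouse. The members' median was 0.42 with array weights and 0.55 to 1.25 without 1 mouse, and 0.87 to 1.05 otherwise. The difference of module means was 0.58 to 1.07 without 1 mouse. Chosen after seeing the data, leaving out BBR mouse 3 and SASP mouse 1 together gave 2988 of 12072 genes. In that setting 4 of 41 members (Des, Tpm1, Ppp1r14a and Atp2a2) and 29 genes of other lists passed. The members' median was then 0.35 and the difference of module means 0.35. Signs reversed in Cacna1c (-0.089), Kcnma1 (-0.14), Kcnmb1 (-0.00047) and Lpp (-0.057) with array weights. Leaving out mice moved Lpp between -0.032 (without both) and 0.41, and Ldb3 between -0.24 (without both) and 0.041 (without BBR mouse 1). The cause was not tested. Array weights ran from 0.129 for BBR mouse 3 to 5.32 for BBR mouse 1. No paired analysis was possible because the numbers of the mice follow accession order and pair nothing. With 3 mice a group, differences under the spread within a group were not detectable.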

Other observations

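Ratios between members, chosen after the data were seen, add values without a test. The ratio of Actg2 to Acta2 was 1.18, 0.530 and 1.39 in the BBR mice and 0.590, 0.858 and 0.625 in the SASP mice, so that BBR mouse 2 lay below all SASP mice and the groups overlapped. Desmin to vinculin (Des to Vcl) was 7.04, 6.49 and 10.8 against 2.57, 4.69 and 4.40, without overlap. The muscarinic receptors Chrm2 and Chrm3 stood at 10.9, 8.0 and 12.3 against 13.1, 8.81 and 5.94, and the potassium channel subunits Kcnmb1 and Kcnma1 at 0.926, 0.919 and 1.34 against 0.634, 1.03 and 0.831, both with overlap.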
